A study of Mus musculus with 6 samples.

Results

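The anaphase promoting complex (APC/C) and its regulators are described here through 10 transcripts of the 25899 genes in an FPKM table of oocytes from aged female (AF) mice. FPKM, fragments per kilobase of exon scaled to the mapped reads of the library, is a level per length, so it can be compared between genes. The 10 were grouped by function, with earlier results of these data known: the coactivators *Cdc20* and *Fzr1*, the subunits *Cdc16*, *Cdc23*, *Cdc27*, *Anapc1*, *Anapc4*, *Anapc10* and *Anapc11*, and the inhibitor *Fbxo5*. All 10 had a row of their own and exceeded 0 in all 6 libraries, which held for 17.5% of the genes in the table and for 42.8% of the genes tested below. Of the subunits outside the 10, *Anapc13* was above 0 in 1 library and *Cdc26* in 5.

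The study compared the polysomal mRNAs of young and aged females at the entry into the first meiotic division. Lysates of 3 AF oocyte samples were run on sucrose gradients, and the 10 fractions of each were pooled into a non-polysomal (NP) and a polysomal (P) part, giving 3 NP and 3 P libraries. The young group is not analysed here, so every comparison is of P with NP within AF oocytes. All 6 libraries carry the same background and treatment. The labels name the strain CD1 and an age of 58 weeks, with no transgene. In the study's methods the mice are named ICR, and the age given is somewhat lower. The females had received 5 IU of pregnant mare serum gonadotropin 46 h before collection, and fully grown oocytes were taken in 100 µM IBMX, which holds them in prophase. Denuded oocytes then matured without IBMX for 180 min and were kept for 10 min in cycloheximide at 0.1 mg/ml, which stalls ribosomes on the mRNA. Each sample pooled 200 oocytes that had undergone nuclear envelope breakdown (NEBD), so no value belongs to a single oocyte or animal.

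The APC/C is a large ubiquitin ligase that marks securin and B-type cyclins for destruction, and this destruction starts anaphase and ends each meiotic division. The complex works only with a coactivator: CDC20 acts at the metaphase to anaphase transition and is held in check by the spindle assembly checkpoint, whereas FZR1 (also called CDH1) keeps cyclin B1 low during prophase arrest of the oocyte. EMI1, the product of *Fbxo5*, inhibits the APC/C. Fully grown oocytes are transcriptionally silent, so protein is made from stored mRNA, and lengthening of poly(A) tails through elements in the 3′ UTR is a well known way of recruiting such mRNA to ribosomes.

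Depth sets the limits of what follows. The recovered depth was 1237799, 18096655 and 12131036 reads in NP replicates 1, 2 and 3, but 163821, 1141530 and 1549318 in the P replicates, a 110-fold span. All 12 oocyte markers examined (the zona pellucida genes, *Gdf9*, *Bmp15* and others) were above 0 in every library, with sums between 5570 and 15621 FPKM. The 12 granulosa and cumulus markers summed to between 10.5 and 131 FPKM in NP and between 1.54 and 15.4 in P, mostly from *Cyp19a1* and *Nr5a2*. Of these 12, 7 stood at 0 throughout, the defining *Fshr*, *Amh* and *Foxl2* among them. The highest sum was in NP replicate 3, the library in which 7 of the 10 APC/C transcripts had their lowest NP value and in which 60.8% of all genes tested had theirs. The part of these cells in the results was not tested. Of 8 blood and immune markers found in the table, *Cd68* was at 0.643 FPKM in NP replicate 1 and the others were at 0. In pooled oocytes, fewer oocytes carrying an mRNA and less of it per oocyte cannot be told apart.

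Sequence elements of the 3′ UTR are given first, as a description, and whether they go with the levels in P and NP was not tested. In the GENCODE M21 annotation (GRCm38), the 3′ UTR of the longest coding transcript was searched on the mRNA strand for TTTTAT and TTTTAAT, the cytoplasmic polyadenylation elements bound by CPEB1, and for the polyadenylation signals AATAAA and ATTAAA. Matches were allowed to overlap each other. An element lay anywhere in the 3′ UTR in 61.4% of 8901 genes tested and in 8 of the 10 APC/C transcripts, the exceptions being *Fzr1* and *Cdc16*. These shares are not like with like, since the 10 had a median 3′ UTR of 1799 bases against 1080 over genes tested, and a longer 3′ UTR offers more places for a match. Within 100 bases of the 3′ end it was found in 19.3% of genes and in 2 of the 10, *Cdc20* and *Fbxo5*. When every coding transcript of a gene was allowed, those figures became 26.8% of genes and 3 of the 10, *Cdc27* being added through a shorter transcript. A polyadenylation signal was within 100 bases of the end in 8 of the 10 and in 81.4% of genes. With every coding transcript allowed, it was there in 9 of the 10 and in 87.5% of genes. The windows below show the last element of 4 transcripts, 5′ to 3′ as DNA letters, with elements and signals in capitals. The first pair carry it near the 3′ end and the second pair far from it.
Cdc20, chr4:118432916-118432945, minus strand: cttgtTTTTATTTTATtttttctAATAAAg
Fbxo5, chr10:5799224-5799253, minus strand: tgtgagttttTTTTATatctgtgaatacct
Cdc27, chr11:104503112-104503141, minus strand: cttaacaattTTTTATtttacccaagaact
Anapc1, chr2:128610656-128610685, minus strand: attcctgttcTTTTATactccaatgtttag

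The 3′ UTR of *Cdc20* is only 62 bases long and holds 2 elements that share a base and end 29 bases before the transcript does. That of *Fbxo5* is 411 bases and its last element ends 78 bases from the end. In *Cdc27* and *Anapc1* the last element is 381 and 566 bases from the end of 3′ UTRs of 2853 and 2844 bases. The 3′ UTR of *Fzr1* is 1287 bases with neither element, and its only polyadenylation signal lies 1160 bases from the annotated end. A match of letters is a description and does not show that a protein binds there.

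None of the 10 APC/C transcripts passed the test between P and NP. P was compared with NP by limma on log2(FPKM + 1) over all 10578 genes whose mean FPKM exceeded 1 in NP or in P, and a gene was called at a Benjamini-Hochberg adjusted p below 0.1. By this rule 1.8% of genes were lower and 0.0189% higher in P, and 0 of the 10 were called in either direction. At an unadjusted p below 0.05 there was 1 of the 10 (*Fzr1*), against 15.8% of all genes. Over all genes these log2 ratios had a median of -1.03, and 80.1% of genes had a negative ratio. The FPKM of a library summed to between 246182 and 393876 in P and between 597261 and 633110 in NP. Genes above 0 numbered 6247 to 9557 in P and 9992 to 13514 in NP. A ratio of P over NP is therefore not the share of an mRNA on polysomes. The 10 had a median of -0.66, with 6 negative and 4 positive ratios, and 6 lay above the median of all genes. *Anapc10*, with a positive ratio, passed the filter only through its P mean, so its direction was set by the filter. A filter at a mean FPKM above 5, which drops it, gave a median of -0.90. The median of the 10 turned positive under 3 rescalings of the libraries (0.25 by median of ratios, 0.52 by quantile normalization, 0.22 by a common sum) and was -0.026 without P replicate 3. The same rescalings moved the median of all genes to -0.44, -0.22 and -0.50, so the 10 lay 0.37 above it as deposited and 0.69, 0.74 and 0.72 above it after rescaling. This offset was not stable. It was 0.013 without P replicate 1, 0.086 with a pseudocount of 5 and 0.91 without P replicate 3. Without the filter, when the median of all genes is 0, it was -0.66. Nothing in the sources says whether the 3 samples came from separate groups of mice, so p-values measure the spread between these libraries.

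**Figure D1:**
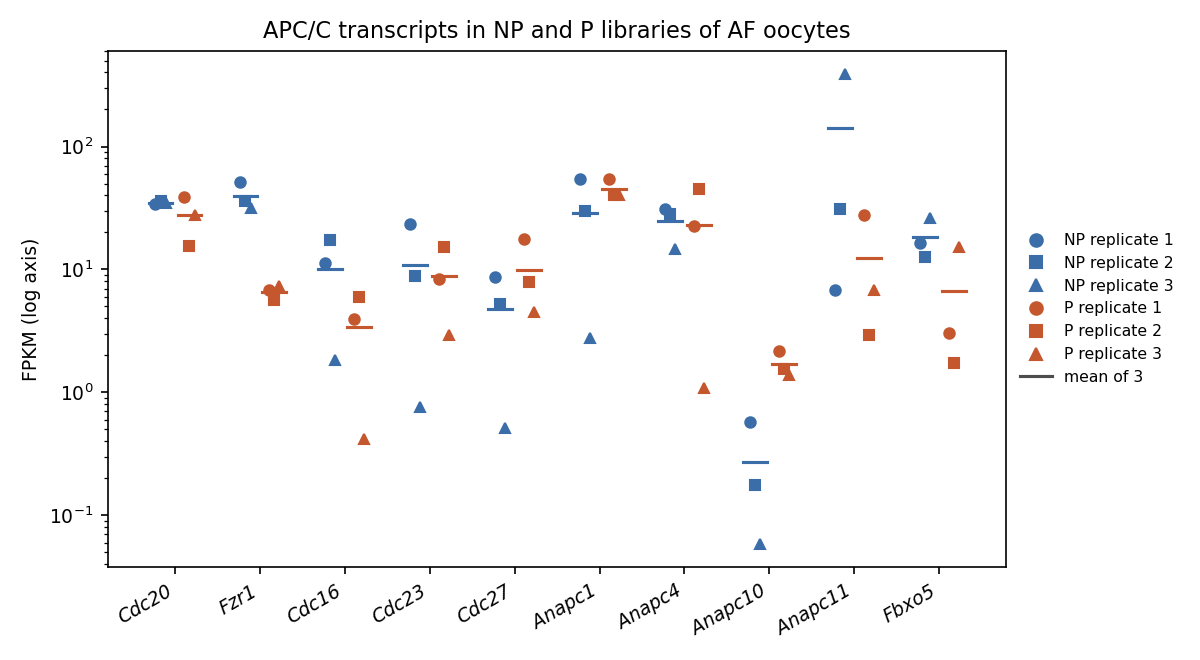
FPKM (log axis) of the 10 APC/C transcripts in each NP (blue) and P (orange) library, marked by replicate, with a bar at the mean of 3. The P values of *Fzr1*, at most 7.33, sit below its NP values, at least 31.4, while the NP values of *Cdc20* lie within 1.05-fold of each other and those of *Anapc11* span 56.4-fold.

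The coactivators had like levels in NP and unlike levels in P. *Cdc20* (chr4:118432901-118437352) had 34.2, 36.0 and 34.8 FPKM in NP replicates 1, 2 and 3 and 39.2, 15.5 and 28.0 FPKM in the P replicates. P replicate 1 was the highest of all 6 libraries and P replicate 2 the lowest, so the fractions overlapped. Their means were 35.0 ± 0.946 in NP and 27.6 ± 11.9 in P (SD, n = 3). The NP values are the most even of the 10, and 0.130% of the 8433 genes tested and above 0 in all 3 NP libraries varied as little or less. The log2 ratio was -0.43 (SE 0.97), with an adjusted p of 0.834 by limma. It was 0.60 above the median of all genes, and its sign turned when the libraries were rescaled (0.54 by median of ratios, 0.58 by quantile normalization, 0.48 by a common sum), which raised the median of all genes as well, so that *Cdc20* was then 0.98, 0.80 and 0.97 above it. Relative to the median of all genes *Cdc20* was 0.15 with a pseudocount of 5 and 0.31 without P replicate 1. It was -0.43 without the filter, when that median is 0. Leaving out a library gave ratios from -0.72, without P replicate 1, to -0.076, without P replicate 2.

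*Fzr1* (chr10:81366222-81378516) had 51.8, 36.1 and 31.4 FPKM in NP, against 6.80, 5.66 and 7.33 FPKM in P. Every P value lay below every NP value, with a gap between 7.33 and 31.4. Such a gap in that direction was found in 23.2% of all genes. The mean of P was 6.60 ± 0.855 and that of NP 39.8 ± 10.7 (SD, n = 3), so the NP mean was 6.03 times the P mean. The log2 ratio of -2.40 (SE 1.05) was 1.37 below the median of all genes and in the lowest 13.7% of them, and its adjusted p was 0.281 by limma. Relative to that median it was -0.82 with a pseudocount of 0.1, -1.03 under median-of-ratios scaling and -2.40 without the filter, when the median of all genes is 0. The P values rest on 5, 29 and 51 recovered reads, and for the 5 reads of replicate 1 the 95% Poisson interval runs from 2.21 to 15.9 FPKM, below the 3 NP values.

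The ratio between the coactivators can be read inside each library, where no scaling between libraries enters. *Cdc20* over *Fzr1* was 0.659, 0.997 and 1.11 in the NP replicates and 5.77, 2.73 and 3.82 in the P replicates. The lowest P ratio was above the highest NP ratio. In P these ratios rest on 12, 33 and 81 reads of *Cdc20* and on 5, 29 and 51 of *Fzr1*. The share of all genes that separate from *Fzr1* in this way was not counted. *Anapc1* over *Fzr1* was likewise apart, at 1.04, 0.823 and 0.0882 in NP, against 8.06, 7.18 and 5.55 in P, so the separation is not particular to the pair of coactivators. *Cdc20* ranked 2 or 3 among the 10 transcripts in all 6 libraries, whereas *Fzr1* ranked between 1 and 3 in NP and between 4 and 7 in P. These ratios were chosen after the values had been seen and are given without a test.

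**Figure D2:**
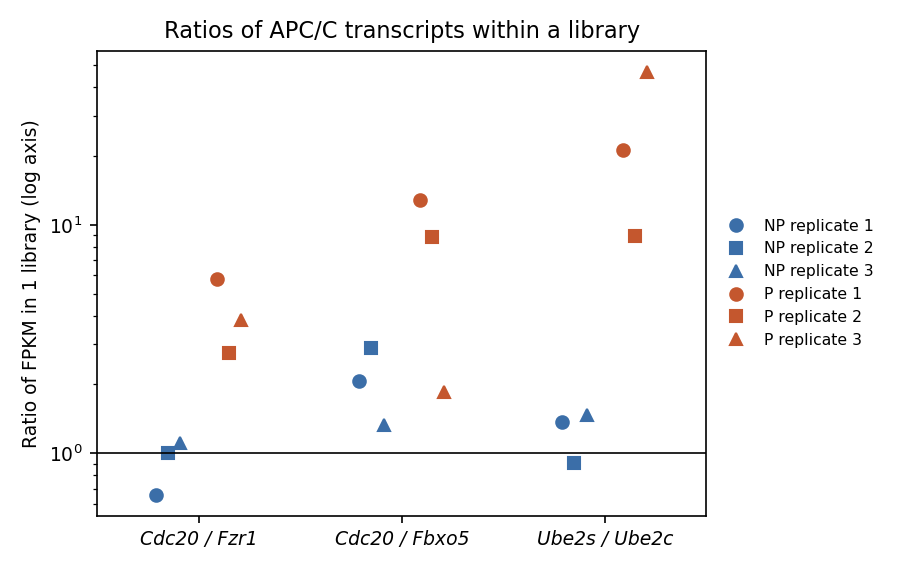
Ratio of FPKM between 2 transcripts of the same library (log axis), for NP (blue) and P (orange), with a line at 1. *Cdc20* over *Fzr1* lies between 0.659 and 1.11 in NP and between 2.73 and 5.77 in P, and *Ube2s* over *Ube2c* between 0.905 and 1.47 in NP and between 8.90 and 46.7 in P. *Cdc20* over *Fbxo5* overlaps between the fractions.

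Over the 6 libraries the genes most like *Cdc20* in log2(FPKM + 1) were *Pla2g15* (Pearson r = 0.994), *Slc25a48* (0.990) and *Atp5h* (0.988). *Pla2g15* had its lowest value, 45.7 FPKM, in P replicate 2 and its highest, 273, in P replicate 1, as *Cdc20* did. For *Fzr1* they were *Cd177* (0.999), *Eif3k* (0.996) and *C920011F04Rik* (0.996). *C920011F04Rik* was at 0 in all P libraries and between 1.10 and 1.54 FPKM in NP. These are the 3 highest correlations over all other genes tested, taken over 6 libraries that share depth and scaling, and they are given as a description.

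The subunits of the arm built from tetratricopeptide repeats (TPR), which receives the coactivator, had overlapping fractions. *Cdc27* (chr11:104502745-104550620), encoding the subunit that docks the coactivator tail, had 8.66, 5.20 and 0.515 FPKM in NP, against 17.6, 7.85 and 4.55 in P. NP replicate 3 was lowest and P replicate 1 highest, and the other values interleaved. The ratio was 1.11 (SE 1.25, adjusted p = 0.628, limma), higher than in 96.2% of genes, and it ranged from 0.33, without NP replicate 3, to 1.66, without NP replicate 1.

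*Cdc16* (chr8:13757676-13781938), another TPR subunit, had 11.2, 17.3 and 1.83 FPKM in NP, against 3.93, 5.93 and 0.416 in P. Replicate 3 was lowest in both fractions, and NP replicate 3 fell within the P values. Its P values in replicates 1 and 3 rest on 2 reads each. The ratio was -1.24 (SE 1.27, adjusted p = 0.596, limma), near the median of all genes. It was -2.04 without NP replicate 3 and -0.55 without P replicate 3.

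*Cdc23*, the remaining TPR subunit among the 10, had 23.2, 8.84 and 0.764 FPKM in NP, against 8.35, 15.3 and 2.92 in P. The fractions overlapped, with the highest and the lowest value both in NP, and the ratio was 0.17 (SE 1.28, adjusted p = 0.954, limma). The sign became negative without NP replicate 3 (-0.87) and without P replicate 2 (-0.31). Its exons share 1271 bases, 13.4% of their length, with exons of *Kif20a* on the opposite strand. *Kif20a* averaged 80.8 FPKM in NP and 68.6 in P, and reads of the shared stretch cannot be told apart because the strand setting of the counting is not given in the sources used here.

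Of the platform subunits, *Anapc1* had the highest P mean of the 10 transcripts, and in P replicate 2 *Anapc4* was above it. *Anapc1* (chr2:128610104-128687391), encoding the largest scaffold of the complex, had 54.0, 29.8 and 2.77 FPKM in NP, against 54.8, 40.6 and 40.7 in P. The P values were within 1.35-fold of each other, whereas NP replicate 3 stood 10-fold or more below both other NP libraries. The ratio was 1.31 (SE 1.09, adjusted p = 0.521, limma), higher than in 97.3% of genes, and it ranged from 0.16, without NP replicate 3, to 2.09, without NP replicate 1. This transcript is the best covered of the 10 in P, with 150, 775 and 1054 reads.

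*Anapc4* (chr5:52834015-52867797), a further platform subunit, had 31.2, 28.2 and 14.7 FPKM in NP, against 22.8, 45.1 and 1.09 in P. P replicate 2 was the highest and P replicate 3 the lowest of the 6, a 41.3-fold difference within P. The ratio was -0.90 (SE 1.20, adjusted p = 0.695, limma), and it turned to 0.43 without P replicate 3 and to 0.46 under quantile normalization. Inside P replicate 3, *Anapc1* was 37.2 times *Anapc4*, against 2.41 and 0.900 times in P replicates 1 and 2.

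The remaining subunits bind substrate and catalyse ubiquitin transfer. *Anapc10* (chr8:79711820-79777321), which forms part of the receptor for the destruction box of substrates, had 0.577, 0.177 and 0.0588 FPKM in NP, against 2.18, 1.56 and 1.38 in P. All P values exceeded all NP values, as in 0.633% of genes, but they rest on 1, 5 and 6 reads in P and 2, 9 and 2 in NP. The 95% Poisson interval in P replicate 1, 0.0552 to 12.1 FPKM, covers all 6 values. The ratio was 1.10 (SE 0.85, adjusted p = 0.499, limma). It was the lowest of the 10 in every library but P replicate 3, and it passed the filter on low values only through its P mean of 1.71 FPKM. A processed pseudogene, *Gm15530*, matches 553 bases of its transcript at 97.3% identity and could take or give reads.

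*Anapc11* (chr11:120598421-120608198), encoding the RING subunit that recruits the ubiquitin-conjugating enzyme, had 6.87, 30.9 and 387 FPKM in NP, against 27.8, 2.94 and 6.76 in P. NP replicate 3 alone held 91.1% of the NP sum, on 23748 reads, and the other 5 values overlapped between fractions. The mean of NP, 142 ± 213 (SD, n = 3), therefore does not describe a typical library, and the NP median was 30.9. The ratio was -2.26 (SE 1.28, adjusted p = 0.387, limma), and ranged from -3.54, without NP replicate 1, to -0.73, without NP replicate 3. The same library was the lowest in NP for *Anapc1*, *Cdc16*, *Cdc23* and *Cdc27*, so *Anapc11* went the other way there.

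The inhibitor *Fbxo5* (chr10:5799160-5805600) had 16.5, 12.5 and 26.3 FPKM in NP, against 3.05, 1.75 and 15.1 in P. P replicates 1 and 2 lay below all NP values, and P replicate 3 fell between NP replicates 2 and 1. The 2 lower P values rest on 1 and 4 reads. The ratio was -1.72 (SE 1.18, adjusted p = 0.460, limma), and ranged from -2.48, without P replicate 3, to -1.21, without P replicate 2. *Fbxo5* shares 91.2% identity over 1759 bases with transcripts of *Glcci1*, which averaged 222 FPKM in NP and 35.0 in P, and 94.0% over 1246 bases with the pseudogene *Gm16042*, so its level is uncertain. *Cdc20* has a pseudogene of this kind too, *Gm7856*, with 93.7% identity over 1512 bases.

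Between neighbouring levels there was little separation. In NP the order of the means, from *Anapc11* through *Fzr1*, *Cdc20*, *Anapc1*, *Anapc4*, *Fbxo5*, *Cdc23*, *Cdc16* and *Cdc27* to *Anapc10*, held no pair of neighbours whose ranges were apart. In P the order was *Anapc1*, *Cdc20*, *Anapc4*, *Anapc11*, *Cdc27*, *Cdc23*, *Fbxo5*, *Fzr1*, *Cdc16* and *Anapc10*, and the ranges were apart only between *Anapc1*, at least 40.6 FPKM, and *Cdc20*, at most 39.2. That value of *Cdc20* rests on 12 reads with a 95% Poisson interval of 20.3 to 68.5 FPKM, so the gap is within counting error. Of the 60 values behind these orders, 9 rest on 5 reads or fewer.

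**Figure D3:**
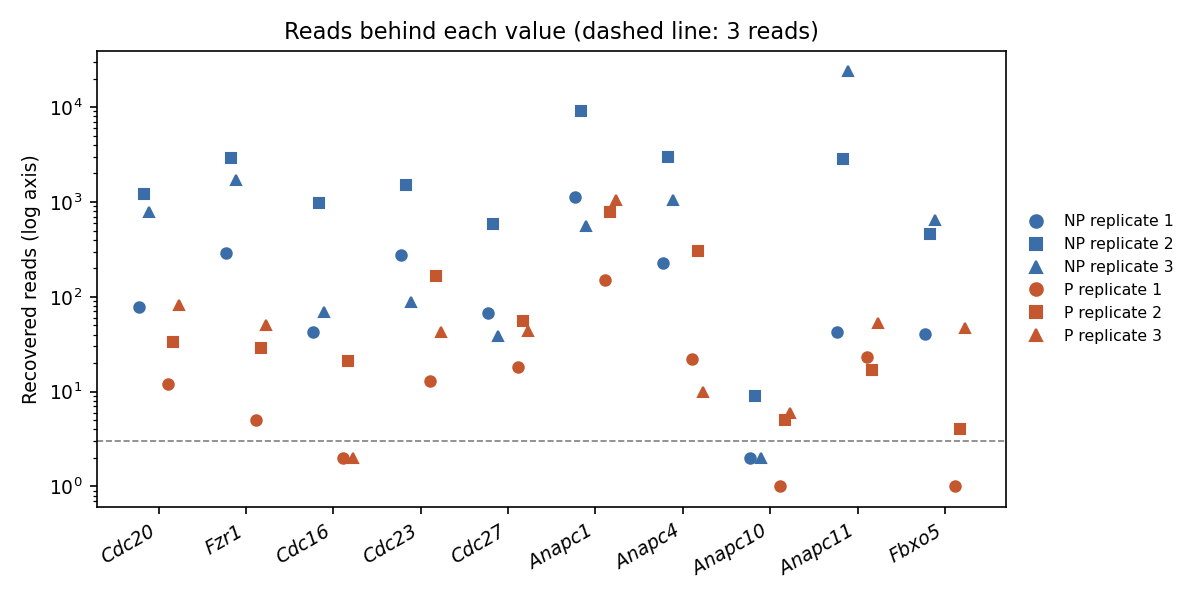
Recovered reads (log axis) behind each value of the 10 APC/C transcripts in NP (blue) and P (orange) libraries, with a dashed line at 3 reads, the limit used for a value of 0. *Anapc10* rests on 1 to 9 reads in every library, *Anapc1* on 150 or more.

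The 7 further subunits were set beside the 10. Of these, 6 passed the filter and 0 of 6 passed the test in either direction (limma, as above), with 5 ratios negative and 1 positive and a median of -0.40. *Anapc5*, a platform subunit, had the highest NP mean of all subunits, with 149, 221 and 548 FPKM, and had 75.5, 85.7 and 7.04 in P. All P values lay below all NP values, as in 23.2% of genes, and its ratio of -2.81 (SE 0.94) had an adjusted p of 0.162 by limma. It was -1.69 without P replicate 3 (adjusted p = 0.321) and -3.32 without P replicate 1 (0.0971), and with the replicate number as a block, where 6.27% of all genes were called lower, its adjusted p was 0.0904. *Anapc2*, the cullin that pairs with ANAPC11, ranged from 5.24 to 61.0 FPKM in NP and from 12.2 to 40.8 in P.

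The TPR subunit *Anapc7* ranged from 11.1 to 73.8 FPKM in NP and from 19.1 to 70.5 in P. *Anapc16* ranged from 20.8 to 52.3 in NP and from 9.19 to 327 in P, with 88.7% of the P sum in replicate 3. *Anapc15* (listed as *3200002M19Rik*), needed for turnover of the checkpoint complex, ranged from 17.4 to 25.6 in NP and from 4.81 to 36.9 in P. The values of *Anapc2*, *Anapc7*, *Anapc15* and *Anapc16* thus overlapped between fractions. *Cdc26*, which stabilizes CDC16, was between 1.18 and 6.49 FPKM in NP and at 0, 3.17 and 2.43 in P, where the 0 of P replicate 1 came at a depth of 163821 reads. *Anapc13* was at 1.77 FPKM in NP replicate 2 and at 0 in the other libraries.

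Of the enzymes that hand ubiquitin to the APC/C (E2 enzymes), *Ube2c* was lower in P, *Ube2s* overlapped between the fractions and *Ube2d1* was near 0. *Ube2c*, which starts ubiquitin chains, had 99.7, 129 and 72.3 FPKM in NP, against 4.70, 10.4 and 4.22 in P. Every P value was below every NP value, as in 23.2% of genes, and the ratio of -3.82 (SE 0.998, adjusted p = 0.0706, limma) was past the threshold. In this fit without a block it was the only gene of the subunit, enzyme, inhibitor and substrate lists to pass, and the call was lost in 10 of 16 alternative settings, with adjusted p-values between 0.0331 and 0.620 over the 16. Among these were the fits without NP replicate 1 (adjusted p = 0.395), 2 (0.417) or 3 (0.165) and each of the 3 rescalings of the libraries. The exons of *Tnnc2* on the opposite strand cover 22.8% of its exon length, and P replicate 1 rests on 2 reads.

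*Ube2s*, which extends the chains, had 137, 117 and 107 FPKM in NP, against 99.6, 92.9 and 197 in P. The fractions overlapped, and its ratio of 0.03 (SE 0.77, adjusted p = 0.985, limma) was 1.06 above the median of all genes. *Ube2s* over *Ube2c* was 1.37, 0.905 and 1.47 in the NP libraries and 21.2, 8.90 and 46.7 in the P libraries, again with no overlap. This ratio too was chosen with the values in view, and the share of all genes that separate from *Ube2c* in this way was not counted. *Ube2d1*, which can also start chains, was at 0.0759 FPKM in NP replicate 2 on 6 reads and at 0 elsewhere.

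**Figure D4:**
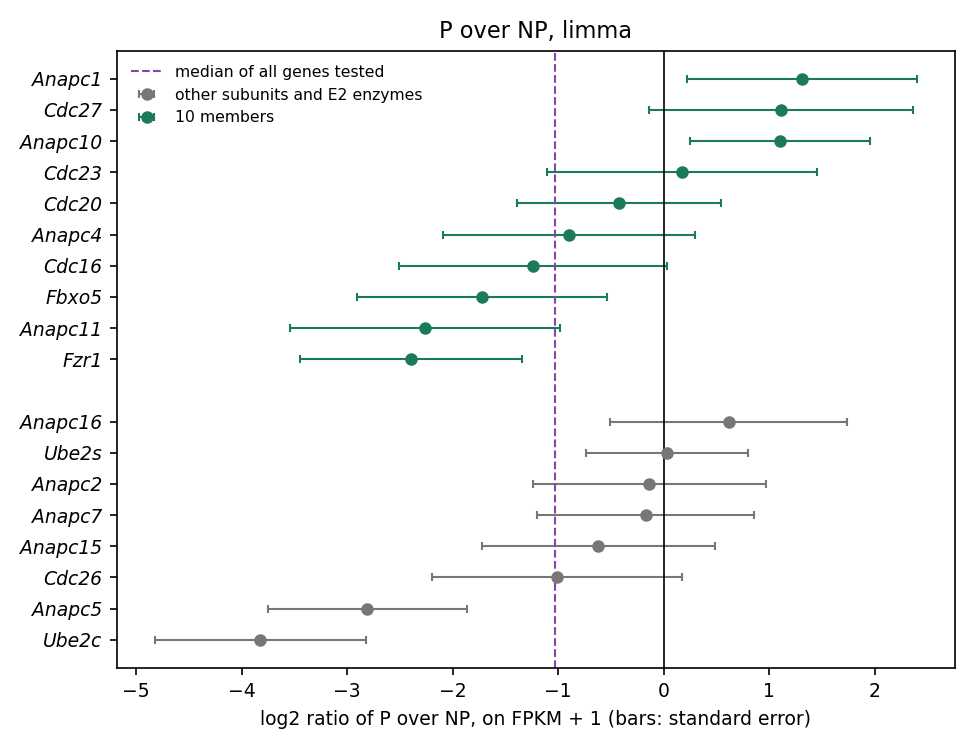
Log2 ratio of P over NP on FPKM + 1 with its standard error (limma), for the 10 APC/C transcripts (green) and for other subunits and E2 enzymes (grey). The dashed line marks the median of all genes tested, -1.03, and *Ube2c*, at -3.82, is the gene past the threshold.

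Of 10 other inhibitors and checkpoint proteins, 8 passed the filter and 0 of 8 were called, with 7 negative ratios and a median of -1.50. *Bub1b*, whose product BUBR1 sequesters CDC20 in the checkpoint complex, was the highest, with 855, 692 and 282 FPKM in NP, against 821, 924 and 599 in P. These values overlapped between the fractions. *Bub3*, a partner of BUBR1, had 380, 656 and 454 FPKM in NP, against 258, 115 and 86.4 in P. All P values were below NP, as in 23.2% of genes, with a ratio of -1.81 (SE 0.69, adjusted p = 0.207, limma). *Ttk*, the kinase that starts checkpoint signalling, ranged from 55.6 to 315 FPKM in NP and from 3.56 to 130 in P. *Mad1l1*, which anchors the checkpoint at kinetochores, ranged from 32.1 to 65.8 in NP and from 4.91 to 35.2 in P.

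All 14 substrates passed the filter and 0 of 14 were called, with 9 negative and 5 positive ratios and a median of -0.44. With the replicate number as a block 2 of 14 were called, *Plk1* lower (adjusted p = 0.0905) and *Kif11* higher in P (0.0588), where 6.27% of all genes were called lower and 0.0473% higher. *Ccnb1*, encoding cyclin B1, had 677, 1331 and 1686 FPKM in NP, against 462, 508 and 188 in P. All P values were below NP, as in 23.2% of genes, with a ratio of -1.70 (SE 0.60, adjusted p = 0.182, limma). The kinase gene *Plk1* had 682, 756 and 2085 FPKM in NP, against 266, 225 and 436 in P, all below NP, with a ratio of -1.78 (SE 0.61, adjusted p = 0.166). *Aurka*, a spindle kinase, ranged from 165 to 313 FPKM in NP and from 118 to 479 in P. *Ccnb2*, encoding cyclin B2, ranged from 34.1 to 369 in NP and from 22.7 to 230 in P, so both of these overlapped.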

How the data were processed

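The deposited table holds FPKM per gene and library. According to the submitters' processing notes and the study's methods, the authors used Trim Galore 0.4.1 for trimming, FastQC 0.11.5 for quality control, HISAT2 2.0.5 for alignment to GRCm38 and Seqmonk for FPKM. RNA of the pooled fractions had been depleted of rRNA, and the cDNA made from it was amplified before library preparation, so reads are not independent molecules, and intervals and limits cover counting error only. For the annotation release and strand setting, the source text is silent (not given in the sources used here). The table's mean columns were not used.

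Of 25965 rows, 66 repeated a symbol and the row with the highest mean was kept. Low FPKM values are multiples of what 1 read is worth, which gave the depth of each library. Between 84.5% and 90.6% of low values came out whole within 0.02 reads. Summed over exons, these reads exceeded that depth by a factor of 1.10 to 2.24, so a step may not be exactly 1 sequenced fragment. All 10 transcripts came out whole, *Anapc4* and *Anapc10* only with the exon lengths taken from the steps (5902 and 2802 bases in place of 6081 and 4837). A 2 kb transcript at 0 allows up to 1.21, 0.0829 and 0.124 FPKM in the NP libraries and 9.16, 1.31 and 0.968 in the P libraries, taking 3 reads as the limit.

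The test of P against NP used limma 3.58.1 (R 4.3.3) with a trend of the spread on the level, two-sided, with a pseudocount of 1. Ratios on log2(FPKM + 1) understate the change of low genes. An exact permutation test of 3 libraries against 3 cannot go below p = 0.1 and was not used. The scripts were tested on simulated data. Sequences were compared with BLAST 2.17.0, and plots were made in Python 3.11.15 with matplotlib 3.10.9. The 10 genes, the lists and the tests were chosen with earlier results of these data known. Genes named are the 10, the further subunits and E2 enzymes, the 4 highest inhibitors and substrates, and the 3 genes most like each coactivator. The alternatives were other pseudocounts, filters, scalings, thresholds, no trend, a replicate block, and each library left out.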

Additional observations from a re-analysis of the deposited data

How the results depend on the processing

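None of the 10 APC/C transcripts passed the threshold under any of the 16 alternatives. Of 159 ratios of the 10 under these alternatives, 49 could not move by construction (another filter, threshold or model of the spread), and 8 of the other 110 changed sign. *Cdc20* turned to 0.54 under median-of-ratios scaling, 0.58 under quantile normalization and 0.48 under a common FPKM sum. *Cdc23* turned to -0.023 with a pseudocount of 5, and ranged from -0.87 to 1.02 when a library was left out. *Anapc4* turned to 0.46 under quantile normalization and ranged from -1.80 to 0.43 when a library was left out. *Fzr1* stayed negative, between -2.55 and -1.41, with adjusted p-values between 0.187 and 0.721 (limma). The 3 rescalings (median of ratios, quantile normalization, common sum), which raised the median of all genes, moved other ratios without a change of sign. These became -0.48, -0.044 and -0.49 for *Cdc16* and 1.99, 2.33 and 1.88 for *Cdc27*. For *Anapc1* they became 2.29, 2.22 and 2.19, and for *Fbxo5* -0.85, -0.69 and -0.94.

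The median over the 10, -0.66, was -0.43 with a pseudocount of 5, -0.90 with a mean FPKM above 5 (which drops *Anapc10*), 0.25 under median-of-ratios scaling, 0.52 under quantile normalization and 0.22 under a common sum. It ranged from -1.02, without P replicate 1, to -0.026, without P replicate 3. These scalings moved the median of all genes from -1.03 to -0.44, -0.22 and -0.50. They left 3, 4 and 6 genes called, of which 1, 2 and 4 were lower in P, in place of 192 with 190 lower. Calls over all genes were 69 with a pseudocount of 0.1, 1 without the filter, 15 without the trend, 65 at a threshold of 0.05, and between 1 and 331 when a library was left out.

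Counts of transcripts among the 10 whose fractions did not overlap rose from 2 to 4 under both the median-of-ratios and the common-sum scaling. Under the first, 12.1% of all genes tested lay below and 3.61% above NP, and under the second 12.4% and 3.02%. *Fzr1* below and *Anapc10* and *Anapc1* above NP were in both, with *Cdc27* above in the first and *Cdc20* above in the second. *Anapc10* passed the filter only through its P mean.

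Libraries with the same number deviated together only weakly (correlations of 0.0634, 0.0991 and 0.116 across genes, against -0.0886 to 0.0208 for unlike numbers). Each library thus correlated best with its own number, a hint of pairing from the data. NP and P parts came from the same samples, but no source ties the numbers to them, and the fit reported has no block. With the replicate number as a block, 668 genes were called, 663 of them lower in P, and 0 of the 10, with an adjusted p of 0.191 for *Fzr1*. *Anapc5* (adjusted p = 0.0904), *Plk1* (0.0905) and *Kif11* (0.0588) passed with the block, and *Anapc5* also without P replicate 1 (0.0971) but not without P replicate 3 (0.321, with a ratio of -1.69). The causes were not tested.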

Other observations

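*Kif11*, a spindle motor that is on the substrate list and that the study picked from P fractions of young against aged females, a different comparison that shares these P libraries, lay outside the genes chosen by level and was noticed after its value was seen. It had 3.86, 2.10 and 0 FPKM in NP, against 53.2, 11.1 and 63.8 in P. All P values were above all NP values, as in 0.633% of genes. Its log2 ratio of 3.82 (SE 1.22) had an adjusted p of 0.146 by limma and was higher than in 99.99% of genes tested.

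The securin gene *Pttg1* was chosen in the same way. It had 26.3, 26.3 and 69.4 FPKM in NP, against 134, 50.8 and 106 in P, with a ratio of 1.28 (SE 0.90, adjusted p = 0.466, limma). P replicate 2 fell below NP replicate 3, so the fractions overlapped.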
